A study of Mus musculus with 9 samples.

Results

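Keratins and claudins are the building blocks of an epithelium's skeleton and of its seals, and 8 of their genes were measured here in naïve and primed mouse pluripotent cells. The genes were the keratins *Krt7*, *Krt8*, *Krt18* and *Krt19* and the claudins *Cldn3*, *Cldn4*, *Cldn6* and *Cldn7*, found in the count file by their Ensembl IDs. They are 8 of 54232 gene IDs, and make up 4 of the 53 protein-coding keratin genes and 4 of the 33 protein-coding claudin genes in the file. They were chosen from an earlier look at these data, so their levels and fold changes in every comparison are given as a description with a standard error and no p-value. All 8 passed the filter on low values in every comparison, with at least 37 counts in each naïve and primed library.

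Poly(A) RNA was sequenced from naïve mESCs and primed mEpiSCs at passages 5 and 15 (P5 and P15), with 2 libraries per state and passage, and from MEFs, the mouse embryonic fibroblasts used as feeders, with 1 library. All cells carried the strain label C57 x CBA. The naïve cells were the OG2 ESC line, whose Oct4 distal promoter drives GFP, grown in serum with LIF on MEFs stopped by mitomycin C, and the primed cells were converted from them with bFGF and Activin A on the same kind of feeder. The model is therefore 1 line grown on feeders, and the sources used here do not say whether the feeders were taken off before RNA extraction. The sources used here do not say whether the 2 libraries of a group came from separate cultures, and p-values then measure only the spread between these libraries, which may be technical.

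Keratins are the intermediate filament proteins of epithelial cells. A filament needs both kinds of keratin, a type II protein such as *Krt7* or *Krt8* paired with a type I protein such as *Krt18* or *Krt19*, and *Krt8* with *Krt18* is the pair of simple epithelia and of the first epithelial cells of the embryo. Claudins are the membrane proteins whose strands form the tight junction, and which of them a cell makes sets what passes between cells. Naïve cells stand for the inner cell mass and primed cells for the epiblast after implantation, which is itself a polarised epithelium.

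Total counts lay between 14378051 and 20985136 outside the MEF library and were 25646547 in it, so that 3 counts, the most that a count of 0 allows, stand for 0.148 to 0.221 CPM (counts relative to the scaled total of the library) and 0.129 CPM in MEFs, for counting error only. The state labels were checked on marker genes. The naïve marker *Esrrb* averaged 513 CPM in naïve and 58.2 CPM in primed cells at P5, and 463 against 4.0 CPM at P15, whereas the primed marker *Fgf5* went from 1.53 to 122 CPM at P5 and from 1.71 to 141 CPM at P15. The fibroblast marker *Col1a1* was at 26517 CPM in MEFs and at 775 to 4315 CPM in the group means of the other libraries. The libraries are of bulk RNA, in which fewer cells of a type and less RNA per cell cannot be told apart.

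The 8 genes lie on chromosomes 5, 11, 15 and 17 of mm10 (GRCm38), with coordinates from GENCODE. *Krt8* (chr15:101996698-102004482, minus strand) and *Krt18* (chr15:102028180-102032027, plus strand) are 23698 bases apart, and *Krt7* lies on the same chromosome (chr15:101411043-101430313, plus strand). *Cldn4* (chr5:134945119-134946934, minus strand) and *Cldn3* (chr5:134986214-134987472, plus strand) are 39280 bases apart. *Krt19* (chr11:100140810-100148665, minus strand) and *Cldn7* (chr11:69964779-69967885, plus strand) are on chromosome 11, and *Cldn6* (chr17:23679249-23682446, plus strand) is on chromosome 17. The promoter windows of the *Krt8* and *Krt18* pair and of 3 claudins with unlike courses are printed because these genes moved together or apart in the values that follow. Each window is 300 bases, 250 before and 50 from the RefSeq start on (GRCm38.p6), and reads 5′ to 3′ on the gene's own strand. The windows are chr15:102004293-102004592 for *Krt8*, chr15:102027966-102028265 for *Krt18*, chr5:134946885-134947184 for *Cldn4*, chr5:134985964-134986263 for *Cldn3* and chr17:23679115-23679414 for *Cldn6*. Capitals mark the letters of 5 motifs on either strand, which were the TATA box TATAAA, the GC box GGGCGG, the AP-1 site TGANTCA, the E-box CACCTG and the grainyhead core AACNNGTT.
Krt8: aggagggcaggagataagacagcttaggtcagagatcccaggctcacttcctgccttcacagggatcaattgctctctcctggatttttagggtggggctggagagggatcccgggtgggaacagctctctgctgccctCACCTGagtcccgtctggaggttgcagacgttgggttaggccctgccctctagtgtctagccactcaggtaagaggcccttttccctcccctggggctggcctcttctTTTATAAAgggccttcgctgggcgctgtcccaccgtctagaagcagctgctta
Krt18: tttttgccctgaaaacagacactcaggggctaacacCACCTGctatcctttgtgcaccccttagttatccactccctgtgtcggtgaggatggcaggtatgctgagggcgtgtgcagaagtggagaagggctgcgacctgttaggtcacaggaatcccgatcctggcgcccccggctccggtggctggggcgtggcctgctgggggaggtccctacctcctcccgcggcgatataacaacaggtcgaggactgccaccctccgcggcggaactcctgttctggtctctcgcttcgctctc
Cldn4: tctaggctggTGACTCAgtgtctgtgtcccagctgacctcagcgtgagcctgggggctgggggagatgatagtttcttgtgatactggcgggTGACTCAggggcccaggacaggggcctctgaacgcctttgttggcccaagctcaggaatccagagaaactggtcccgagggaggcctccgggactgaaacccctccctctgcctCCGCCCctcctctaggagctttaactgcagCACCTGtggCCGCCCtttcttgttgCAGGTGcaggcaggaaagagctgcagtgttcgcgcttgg
Cldn3: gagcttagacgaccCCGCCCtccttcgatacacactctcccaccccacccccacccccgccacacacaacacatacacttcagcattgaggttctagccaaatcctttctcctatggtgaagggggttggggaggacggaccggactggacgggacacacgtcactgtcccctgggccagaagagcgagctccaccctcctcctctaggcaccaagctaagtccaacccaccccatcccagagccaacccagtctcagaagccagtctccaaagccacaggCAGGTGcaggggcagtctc
Cldn6: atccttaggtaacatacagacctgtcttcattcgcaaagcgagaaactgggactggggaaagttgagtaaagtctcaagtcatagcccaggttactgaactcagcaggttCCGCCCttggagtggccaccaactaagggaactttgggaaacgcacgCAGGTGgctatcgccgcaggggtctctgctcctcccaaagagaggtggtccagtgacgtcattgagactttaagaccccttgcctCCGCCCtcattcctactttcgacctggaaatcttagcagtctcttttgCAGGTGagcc

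RefSeq gave windows for 7 of the 8 genes, all but *Krt19*, and 2 windows for *Cldn7*. The E-box letters CACCTG, which the repressors of the Snail and Zeb families are known to bind, were found in 7 of these 7 genes and in 7 of the 8 windows. Of all 32851 promoter windows of this length 20.2% held them, and so did 23.6% of the 12621 windows with a GC content between 52 and 66.3%, the range of the members. In *Cldn4* they began at positions -14 and 12 from the start site, and in *Krt8* at position -111. The GC box was found in 5 genes, against 35.7% of all windows and 49.6% of those in this GC range, but not in the printed windows of *Krt8* and *Krt18*. The AP-1 letters were found only in *Cldn4* among the 7, at positions -240 and -158, against 7.81% of all windows and 6.04% of those in the GC range. The TATA letters were found only in *Krt8*, where 2 overlapping matches on opposite strands begin at positions -3 and -1, against 13.6% and 6.39%. The grainyhead core was in 0 of the 7 genes and in 4.20% of all windows, or 3.22% of those in the GC range. A match of letters is a description of the window and not a bound site.

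The 4 keratin members were low in naïve cells, reached their highest levels in primed cells at P5 and lay between these levels at P15. *Krt8*, the type II keratin of simple epithelia, was at 58.6 and 60.7 CPM in the 2 naïve libraries of P5 and at 713 and 705 CPM in the primed ones. At P15 it was at 85.3 and 88.8 CPM in naïve and at 182 and 175 CPM in primed cells. Primed libraries were thus above naïve ones at both passages, by 11.9-fold in mean CPM at P5 and by 2.05-fold at P15. The log2 fold change was 3.57 (SE 0.0402) at P5 and 1.04 (SE 0.0640) at P15. The P15 value stands close to the 2-fold limit used for calling and passed it in 11 of 13 settings, with 0.98 when the first naïve library of P15 was left out.

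*Krt18*, its type I partner, followed the same course. It was at 42.4 and 42.6 CPM in naïve and at 452 and 461 CPM in primed libraries of P5, a 10.7-fold difference with a log2 fold change of 3.43 (SE 0.0424). At P15 it was at 59.1 and 62.1 CPM in naïve and at 114 and 109.8 CPM in primed libraries, 1.84-fold apart and short of 2-fold. The count of *Krt8* over that of *Krt18* stayed between 1.38 and 1.60 in the 8 naïve and primed libraries while both levels moved more than 10-fold, and was 0.876 in MEFs. Reads from the pseudogene *Krt8-ps* could be shared with *Krt8*, and it held at most 24 counts in a library, where *Krt8* had 14124.

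*Krt19*, a type I keratin that can pair with *Krt8* or *Krt7*, showed the widest separation of the states at P15 among the 4 keratin members. It was at 21.2 and 21.8 CPM in naïve and at 267 and 275 CPM in primed libraries of P5, which is 12.6-fold (log2 3.66, SE 0.0505). At P15 the values were 16.3 and 17.0 CPM against 60.1 and 57.3 CPM, 3.52-fold apart (log2 1.82, SE 0.0929). Relative to *Krt18*, the count of *Krt19* was 0.501 and 0.510 in naïve libraries of P5 but 0.276 and 0.274 in those of P15, and it was 0.522 to 0.597 in all primed libraries.

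*Krt7*, a type II keratin of ducts and of extraembryonic epithelia, was the lowest of the 4 keratins and the one with the smallest state difference. It was at 6.87 and 7.33 CPM in naïve and at 30.3 and 30.8 CPM in primed libraries of P5, a 4.30-fold difference. At P15 the naïve libraries were at 9.37 and 8.76 CPM and the primed ones at 11.4 and 10.9 CPM. The P15 groups did not overlap, but were only 1.23-fold apart (log2 0.31). With 2 libraries a group, this lack of overlap is a description only.

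**Figure D1:**
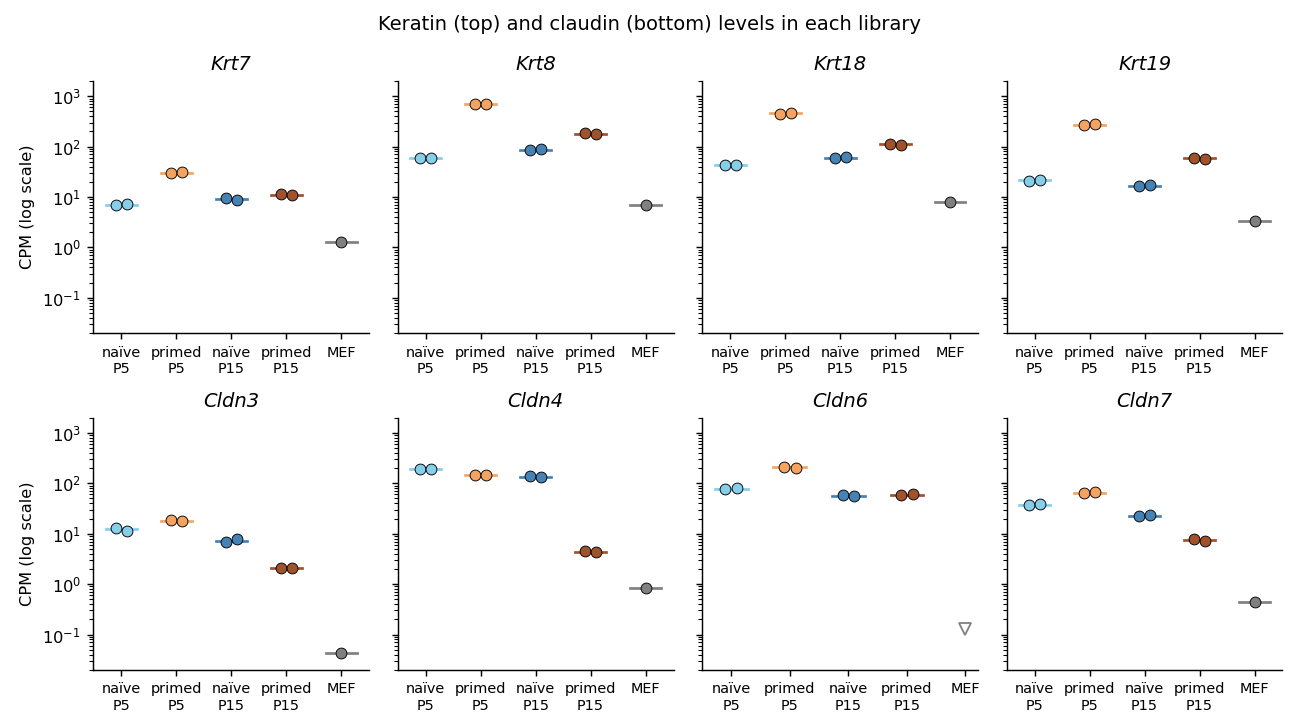
CPM on a log scale for each gene, with 1 point per library and a bar at the group mean for each state and passage and for the single MEF library. The *Krt8* points of primed P5 cells lie at 713 and 705 CPM and those of primed P15 cells at 182 and 175 CPM, whereas *Cldn4* stays at 134 CPM or more except in primed P15 cells (4.49 and 4.35 CPM) and MEFs (0.820 CPM), and the open triangle stands for 0 counts of *Cldn6* in MEFs, drawn at the level of 3 counts.

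Among the claudins, *Cldn4* had the largest fold of any member between states at P15. *Cldn4*, a claudin known to tighten epithelial barriers, was at 189.7 and 195 CPM in naïve and at 143 and 144 CPM in primed libraries of P5. At P15 the naïve libraries held 137 and 134 CPM and the primed ones only 4.49 and 4.35 CPM. The state difference was a log2 fold change of -0.42 (SE 0.0396) at P5, short of 2-fold, and of -4.93 (SE 0.0985) at P15, where naïve cells were 30.6-fold higher. Within primed cells the P15 level was 3.08% of the P5 level.

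*Cldn3* and *Cldn7* lay above their naïve levels in primed cells of P5 and below them at P15. *Cldn3*, known with *Cldn4* as a receptor of a bacterial enterotoxin, was at 12.9 and 11.5 CPM in naïve and at 18.3 and 17.7 CPM in primed libraries of P5. At P15 it was at 6.86 and 7.74 CPM against 2.10 and 2.12 CPM. Its log2 fold change was 0.57 (SE 0.108), short of 2-fold, at P5 and -1.79 (SE 0.234) at P15, on 37 and 38 counts in the primed libraries of P15. *Cldn7*, found along the sides of epithelial cells as well as at their junctions, was at 37.0 and 38.8 CPM in naïve and at 63.5 and 66.0 CPM in primed libraries of P5. At P15 it was at 22.0 and 23.4 CPM in naïve libraries and at 7.84 and 7.26 CPM in primed ones. The log2 fold change was 0.77 (SE 0.0601) at P5 and -1.59 (SE 0.134) at P15. The groups did not overlap at either passage for either gene. With 2 libraries a group, and no share of all genes that separate so given here, nothing is read from this.

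*Cldn6*, a claudin of embryonic epithelia, differed from the other claudins in that it did not end below the naïve level. It was at 75.9 and 80.1 CPM in naïve and at 211 and 205 CPM in primed libraries of P5, which is 2.67-fold (log2 1.42, SE 0.0436). At P15 the naïve libraries held 57.6 and 56.0 CPM and the primed ones 58.6 and 60.4 CPM, 1.05-fold apart (log2 0.07). It was also the only member with 0 counts in the MEF library.

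Counted by the thresholds of the study, an adjusted p under 0.01 and a change of at least 2-fold, 5 of the 8 members were called higher at P5 and 3 were not called, where 13.5% of all genes tested were called higher and 8.85% lower. At P15 2 were higher, *Krt8* and *Krt19*, and 3 lower, *Cldn3*, *Cldn4* and *Cldn7*, where 12.2% of genes were called higher and 11.0% lower. The median log2 fold change of the members was 1.76 at P5 and 0.19 at P15, and that of all genes tested was within 0.01 of 0 at each. Because the members were chosen with these values in view, nothing is read from these counts. Scaling by library size alone, without the TMM factors used here, put the median log2 fold change of all genes at 0.210 at P5 and at 0.101 at P15 and took the share of higher calls among all calls at P5 from 60.4% to 72.5%. It took the *Cldn4* value at P5 from -0.42 to -0.22 and no member across a call.

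By passage, all 8 members were lower at P15 than at P5 in primed cells, and none passed the thresholds in naïve cells, by edgeR or by DESeq2. The log2 fold changes in primed cells were -1.44 for *Krt7*, -1.98 for *Krt8*, -2.02 for *Krt18* and -2.20 for *Krt19*. Those of the claudins were -1.80 for *Cldn6*, -3.08 for *Cldn3*, -3.09 for *Cldn7* and -5.01 for *Cldn4*. The keratins therefore kept 21.7 to 36.5% of their P5 level and the claudins other than *Cldn6* between 3.08 and 11.7%, while *Cldn6* kept 28.6%. All 8 passed the thresholds as lower, where 8.43% of genes were called lower and 3.18% higher. In naïve cells the same comparison gave 0.35, 0.54 and 0.51 for *Krt7*, *Krt8* and *Krt18*, -0.37 for *Krt19*, and -0.46 to -0.74 for the claudins. None of the 8 was called there, and 0.414% of genes were called higher and 0.721% lower. The primed libraries of P5 and of P15 serve in both the state and the passage comparisons, which are thus not independent.

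**Figure D2:**
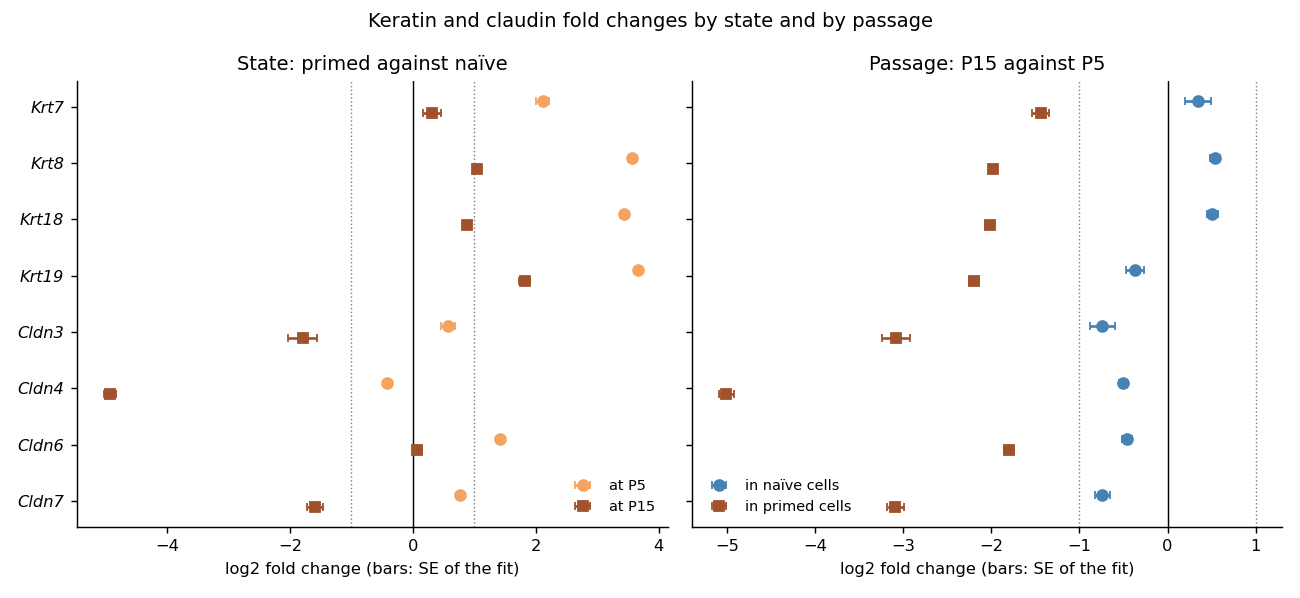
log2 fold changes of the 8 genes with the SE of the fit, for primed against naïve cells at P5 (circles) and P15 (squares) on the left and for P15 against P5 in naïve (circles) and primed cells (squares) on the right, with dotted lines at 2-fold. All P15 squares on the left lie below their P5 circles, as for *Cldn4* at -4.93 and -0.42, and all squares on the right lie below -1.

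The state effect at P15 minus that at P5 was below 0 for all 8 genes when all 8 libraries other than MEFs were fitted together. It was -1.33 for *Cldn6*, -1.78 for *Krt7*, -1.82 for *Krt19* and -2.34 for both *Cldn3* and *Cldn7*. For *Krt8* and *Krt18*, the paired keratins, it was -2.52 and -2.53, and for *Cldn4* it was -4.49. All 8 passed the thresholds in this direction, where 4.80% of genes did and 2.36% passed in the other. Their median was -2.34.

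The make-up of the keratin and claudin RNA was compared per kilobase of exons, so that long and short transcripts could be set side by side. Per kilobase, *Cldn4* was the highest member in naïve cells of both passages, at 106 CPM per kb at P5 and 74.6 CPM per kb at P15, and *Krt8* was the highest in primed cells, at 362 and 91.2 CPM per kb. *Krt8* and *Krt18* were neighbours in the order in all groups. Their levels per kb in naïve cells were 30.5 and 29.6 at P5 and 44.4 and 42.2 at P15, differences no larger than about the spread between 2 libraries at P15, where *Krt8* was at 43.5 and 45.3 and *Krt18* at 41.1 and 43.2. *Krt7* was the lowest member in each of the 4 groups per kb of its 7.049 kb of merged exons. With the 4.094 kb of its longest coding transcript instead, it ranked above *Cldn3* and *Cldn4* in primed P15 cells, and *Krt19* passed *Cldn6* there, so that this end of the order rests on the length used.

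Among the 4 chosen keratins, the type II and type I sums moved in step. The other keratin genes are not in these sums. At P5, 3 of those were called higher and 2 lower of 7 tested. The 2 lower ones were type I keratins, *Krt42* (17.8 to 2.59 CPM) and *Krt17* (13.3 to 3.66 CPM). Their naïve levels were above that of *Krt7*, at 7.10 CPM. The type II sum (*Krt7* and *Krt8*) was 30.9 and 32.0 CPM per kb in naïve libraries of P5 and 368 and 365 in primed ones. The type I sum (*Krt18* and *Krt19*) was 40.9 and 41.4 CPM per kb in the naïve and 458 and 469 in the primed libraries. The ratio of type II to type I lay between 0.755 and 0.899 in all 8 libraries and was 0.513 in MEFs. *Krt8* and *Krt18* together made up most of the 4 keratins, with 41.7 and 41.1% in the first naïve library of P5.

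Among the 4 chosen claudins, by contrast, the mixture changed from mostly *Cldn4* to mostly *Cldn6*. The other 29 claudin genes summed to 58.6 and 57.1 CPM in primed libraries of P15, most of it *Cldn12* at 47.6 CPM, beside a mean of 59.5 CPM for *Cldn6*. *Cldn4* made up 58.8 and 58.7% of the 4 claudins per kb in naïve libraries of P5 and 60.0 and 59.3% in those of P15. It made up 31.6 and 32.2% in primed libraries of P5 and 5.86 and 5.59% in those of P15. *Cldn6* went the other way, with 24.8 to 26.7% in naïve libraries, 49.4 and 48.3% in primed libraries of P5 and 80.6 and 81.8% in those of P15. The summed claudin members were at 316 and 326 CPM in naïve and 436 and 433 CPM in primed libraries of P5, and at 223 and 221 against 73.0 and 74.1 CPM at P15. The keratin members went from 129 and 132 to 1461 and 1471 CPM at P5 and from 170.0 and 177 to 367 and 353 CPM at P15. Naïve libraries of P5 held 2.44 and 2.46 times as much claudin as keratin in CPM, those of P15 1.31 and 1.25 times as much, and primed libraries 0.199 to 0.298 times as much.

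**Figure D3:**
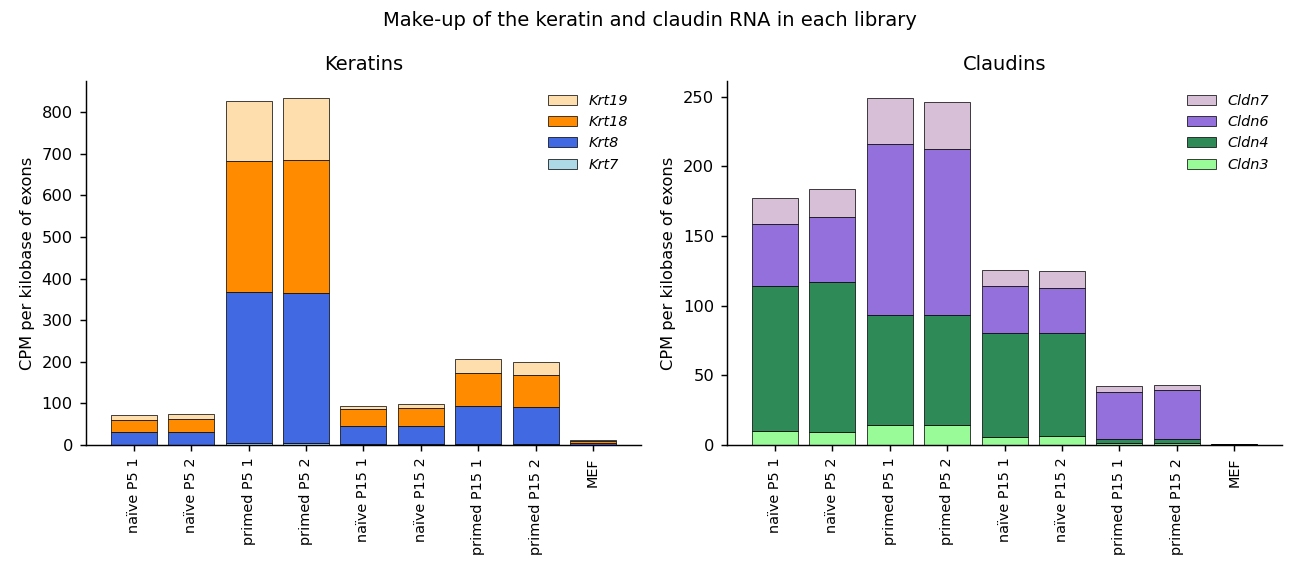
Stacked CPM per kilobase of exons of the 4 keratins (left) and the 4 claudins (right) in each of the 9 libraries, on axes that start at 0. The keratin bars of primed P5 cells are mostly *Krt8* and *Krt18* in near equal parts, *Krt7* is too low to be seen, and *Cldn6* fills 80.6 and 81.8% of the claudin bars of primed P15 cells.

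The replicates lay close together. The ratio of the higher to the lower library of a group was 1.01 to 1.13 over the 32 pairs, with 1.13 reached by *Cldn3* in naïve cells of both passages. Over the 8 naïve and primed libraries, Pearson's r of log2(CPM + 1) was 0.95 or more for each pair of keratins and rounded to 1.0 between *Cldn3* and *Cldn7*. *Cldn6* correlated with the keratins at 0.82 to 0.88 and *Cldn4* at -0.12 to 0.05. These values describe 4 groups of 2 libraries that share their state and passage, and carry no test.

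The genes most like each member by the same measure were sought among 9998 genes with a mean of at least 10 CPM. For *Krt8* and *Krt18* the nearest was *Slc7a11*, a cystine transporter (r = 0.9981 and 0.9956), which was at 2.87 and 2.51 CPM in naïve and 76.6 and 83.6 CPM in primed libraries of P5. *Gpc3*, a cell surface proteoglycan, was nearest to *Krt19* (r = 0.9977), and *Grb10*, an adaptor of growth factor receptors, to *Krt7* (r = 0.9919). *Cgn*, the cytoplasmic tight junction protein cingulin, was nearest to *Cldn3* (r = 0.9922), with 53.8 and 53.9 CPM in naïve and 67.1 and 63.2 CPM in primed libraries of P5 and 45.0 and 48.8 against 26.8 and 26.1 CPM at P15. *Spg11* (r = 0.9911) and *Fosl2* (r = 0.9896) were nearest to *Cldn7*, followed by *Crb3*, an apical polarity protein (r = 0.9884). *Susd2* was nearest to *Cldn4* (r = 0.9968). *Ptpn21* was nearest to *Cldn6* (r = 0.9958), followed by *Erbb3*, a receptor of neuregulins (r = 0.9957). The value is over 8 libraries in each case. Each was picked as among the highest over 9998 genes, on libraries that share state and passage in pairs, and carries no test.

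MEF RNA was lower than every naïve and primed library for all 8 genes. The MEF level was between 0 and 20.1% of the lowest other library, with *Krt18* at 7.99 CPM, *Krt8* at 6.99, *Krt19* at 3.28, *Krt7* at 1.29, *Cldn4* at 0.820, *Cldn7* at 0.432, *Cldn3* at 0.0432 (1 count) and *Cldn6* at 0. The summed 12 fibroblast markers were at 5819.9 and 5881 CPM in naïve and 3319 and 3241 CPM in primed libraries of P5, at 11175 and 11625 against 9335 and 8978 CPM at P15, and at 63554 CPM in MEFs. None of the 12 was at 0 in any library. *Dcn*, a matrix proteoglycan, was at 468 and 724 CPM in primed cells of P5 and P15 against 215 CPM in MEFs, and *Lum*, another, at 89.1 and 307 CPM against 150.4 CPM in MEFs. With a share of the MEF counts taken off each library, 5 members stayed called as higher at P5 and 3 as lower at P15, and *Krt8* lost its call as higher at P15. The share was the median ratio of the 12 markers, 6.24 to 17.4%. Single markers ran from 2.43 to 343% in the second primed library of P15. With so little of the members in MEFs, the subtraction could take little off their counts and is a weak check.

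Other cell types whose epithelia carry these keratins were looked for by markers. Of 10 extraembryonic endoderm markers, 8 were tested at P5, of which 7 were higher in primed cells and 1 lower, and at P15 6 of 7 tested were higher and 1 was not called, against the 13.5% and 12.2% of all genes. Their summed level was 53.0 and 56.6 CPM in naïve libraries of P5 and 41.8 and 43.6 in those of P15. It was 258 and 264 CPM in primed libraries of P5 and 219 and 224 in those of P15. In MEFs it was 222 CPM, with *Dab2* at 168 and *Gata6* at 39.4 CPM, but *Foxa2* at 0.302 and *Sox17* at 0.129 CPM. The sum alone therefore does not tell such cells from feeders. *Foxa2* rose from 0.617 to 48.8 CPM at P5 (adjusted p = 6.13e-25, edgeR) and from 0.201 to 86.6 CPM at P15 (adjusted p = 6.19e-31, edgeR), and *Sox17* from 0.543 to 29.2 CPM at P5 (adjusted p = 1.96e-21, edgeR), both factors of definitive as well as extraembryonic endoderm. The lower marker at P5 was *Amn*, at 2.76 and 1.31 CPM (log2 -1.08, adjusted p = 0.00183, edgeR). Between the primed passages, *Gata4* fell from 36.2 to 6.75 CPM (adjusted p = 4.46e-16, edgeR) and *Hnf4a* from 3.88 to 0.423 CPM (adjusted p = 2.67e-08, edgeR), and the other 6 tested were not called. *Amn* and *Gata4* were named after their values were seen. *Afp* and *Ttr*, which define visceral endoderm, were at 0.0563 CPM or less in each naïve and primed group. Of 10 trophectoderm markers, 2 were higher and 1 lower of 9 tested at P5, where 13.5% of all genes were higher and 8.85% lower. At P15 1 was higher and 3 lower of 9, where 12.2% of all genes were higher and 11.0% lower. The summed level of these markers was 80.1 to 103 CPM in the 8 libraries. *Cdx2* was at group means of 0.940 CPM or less and *Elf5* at 0.135 CPM or less. The sum held opposite changes. *Tfap2c* fell from 60.7 to 20.6 CPM at P5 and from 60.6 to 14.1 CPM at P15. *Eomes* rose from 6.41 to 39.7 CPM at P5 and from 4.38 to 54.3 CPM at P15. The study names *Eomes* as a mesendoderm marker of primed cells. *Gata3*, the other marker called higher at P5, rose there from 1.41 to 7.15 CPM. At P15 it was at 2.65 CPM in naïve and 1.97 CPM in primed cells, so that it too was highest in primed cells of P5. Surface ectoderm markers summed to 1.63 to 3.39 CPM. The part of such cells in the keratin levels was not tested.

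Of the 7 naïve markers, all were lower in primed than in naïve cells at both passages. In primed cells 4 of them were lower at P15 than at P5 and 3 were not called, with *Klf4* at 48.6 and 53.2 CPM. Their sum was 2062 to 2482 CPM in naïve libraries, 234 and 233 in primed libraries of P5 and 113 and 108 in those of P15. *Esrrb* fell from 58.2 to 4.0 CPM between the primed passages (log2 fold change -3.85, SE 0.112, adjusted p = 1.20e-20, edgeR), and *Zfp42* from 17.5 to 0.225 CPM (adjusted p = 1.92e-17, edgeR). Of the 3 factors shared by both states, 2 were higher at P15 than at P5 in primed cells and 1 was not called. *Pou5f1* rose from 214 to 589.7 CPM (adjusted p = 1.27e-19, edgeR) and *Nanog* from 94.5 to 252 CPM (adjusted p = 4.69e-18, edgeR). *Sox2*, which was not called, was at 166 and 143 CPM. The part of remaining naïve cells in the keratin and claudin levels was not tested.

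Of the 49 other keratin genes, only 7 had counts enough to be tested at P5 and 4 at P15. At P5 3 were higher and 2 lower, where 13.5% of all genes were higher and 8.85% lower. At P15 3 were lower and 1 was not called, where 12.2% of all genes were higher and 11.0% lower. The lower ones were the type I keratins *Krt42*, *Krt17* and, at P15, *Krt20*, and these 3 also fell between the primed passages, by 2.18, 2.76 and 3.15 on the log2 scale (adjusted p = 1.38e-05, 1.69e-07 and 3.66e-06, edgeR). *Krt42* fell from 17.8 to 2.59 CPM at P5 (log2 -2.77, SE 0.157, adjusted p = 1.07e-15, edgeR) and from 16.1 to 0.564 CPM at P15 (log2 -4.81, SE 0.245, adjusted p = 3.15e-19, edgeR). *Krt17*, a keratin of basal and stressed epithelia, fell from 13.3 to 3.66 CPM at P5 (adjusted p = 8.17e-11, edgeR) and from 12.7 to 0.535 CPM at P15 (adjusted p = 2.13e-17, edgeR). *Krt20*, a keratin of gut epithelium, was not called at P5 (3.33 against 2.06 CPM) and fell from 4.72 to 0.226 CPM at P15 (adjusted p = 5.39e-11, edgeR). *Krt80*, which lies 40881 bases from *Krt7*, rose from 0.617 to 4.21 CPM at P5 (adjusted p = 8.00e-09, edgeR), and at P15 it was at 0.507 and 0.338 CPM, too low to be tested. *Krt10*, of the upper epidermis, stayed at 3.09 to 3.55 CPM in the 4 groups and was called in no comparison.

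Of the 29 other claudin genes, 7 were tested at P5, with 3 higher and 4 not called, where 13.5% of all genes were higher. At P15 6 were tested, with 2 higher and 2 lower, where 12.2% of all genes were higher and 11.0% lower. *Cldn12* was the only one of them above 10 CPM, at 41.8 and 54.5 CPM in naïve and primed cells of P5 and 42.0 and 47.6 CPM at P15, with 41.1 CPM in MEFs, and it was not called at either passage (log2 0.38 and 0.18). *Cldn11*, the claudin of myelin and Sertoli cells, was at 0.0492 CPM in naïve and 3.15 CPM in primed cells of P5 and at 0 and 2.68 CPM at P15, and was called higher at both (adjusted p = 3.95e-10 and 1.61e-09, edgeR). *Cldn1*, of the epidermal barrier, was called higher at P5 from 0.889 to 2.23 CPM (adjusted p = 0.00139, edgeR), a call lost with DESeq2, without the second naïve library (log2 0.95) and without the first primed library (log2 1.29). *Cldn5*, the claudin of blood vessels, was lower at P15, at 1.62 against 0.253 CPM (adjusted p = 1.49e-04, edgeR).

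Genes around the members were looked at as well. Of 44 genes tested within 100 kb of a member, 5 were higher and 1 lower at P5, and 1 was higher and 4 lower of 40 at P15. Among all genes tested, 13.5% were higher and 8.85% lower at P5, and 12.2% and 11.0% at P15. *Cldn9*, whose gene lies 138 bases from *Cldn6* on the other strand, was at 1.11 and 1.22 CPM at P5 and fell from 1.70 to 0.366 CPM at P15 (log2 -2.19, SE 0.488, adjusted p = 1.77e-04, edgeR), where *Cldn6* differed by 1.05-fold. *Mmp25*, a membrane-bound protease 33972 bases from *Cldn6*, rose at both passages (log2 1.79 and 2.29, adjusted p = 1.85e-13 and 9.64e-17, edgeR). *Elp5*, 337 bases from *Cldn7*, was called at neither passage (log2 -0.23 and -0.12), and neither was *Mettl27*, 2482 bases from *Cldn4* (log2 0.51 and 0.29). *Tns2* and *Eif4b*, which lie within 100 kb of both *Krt8* and *Krt18*, differed by 0.73 and -0.43 on the log2 scale at P5 and by 0.71 and -0.40 at P15 and were not called.

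The partners of claudins in the tight junction held calls in both directions at each passage. Of 23 tested, 5 were higher, 1 lower and 17 not called at P5, where 13.5% of all genes were higher and 8.85% lower. At P15 4 were higher, 5 lower and 14 not called, where 12.2% of all genes were higher and 11.0% lower. The median log2 fold change was 0.62 at P5 and 0.05 at P15. *Ocln*, occludin, was at 9.86 and 17.8 CPM at P5, a log2 fold change of 0.85 that was short of 2-fold, but reached 1.06 without the second naïve library of P5 and 1.05 with scaling by library size alone, which passed. At P15 it fell from 6.29 to 1.12 CPM (log2 -2.47, SE 0.282, adjusted p = 1.26e-09, edgeR), and the difference between the passages was -3.30 (SE 0.285, adjusted p = 7.23e-11, edgeR). *Marveld2*, tricellulin, rose from 7.15 to 25.0 CPM at P5 (log2 1.81, adjusted p = 1.07e-14, edgeR) and from 5.49 to 11.3 CPM at P15 (log2 1.05, adjusted p = 1.42e-06, edgeR), the latter just past 2-fold and lost without the second naïve library of P15 (log2 0.92) or with MEF counts subtracted. *Tjp1*, the scaffold protein ZO-1, was not called at either passage, with group means of 186 to 298 CPM, but *Tjp3*, or ZO-3, fell from 27.9 to 8.37 CPM at P15 (adjusted p = 1.44e-14, edgeR). *Jam2*, a junctional adhesion molecule, was lower in primed cells at both passages (log2 -1.96 and -1.79, adjusted p = 1.26e-20 and 2.19e-18, edgeR), and the receptor *Cxadr* was higher at both (log2 1.74 and 1.18, adjusted p = 8.19e-20 and 1.66e-13, edgeR).

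Keratin filaments are tied to the desmosome, and the desmosome genes named here are those with the largest called changes. Of 14 genes tested at P5, 3 were higher and 11 not called, and of 13 at P15, 2 were higher, 4 lower and 7 not called. Of all genes tested, 13.5% were higher and 8.85% lower at P5, and 12.2% were higher and 11.0% lower at P15. *Dsp*, desmoplakin, which links keratins to the desmosome, rose from 32.2 to 163 CPM at P5 (log2 2.34, SE 0.0516, adjusted p = 1.01e-25, edgeR) and from 27.0 to 71.1 CPM at P15 (log2 1.40, SE 0.0841, adjusted p = 4.04e-17, edgeR). *Dsc2*, a desmosomal cadherin, rose from 3.77 to 36.8 CPM at P5 (adjusted p = 6.91e-21, edgeR) and from 3.15 to 8.53 CPM at P15 (adjusted p = 7.93e-07, edgeR), and its difference between the passages was -1.80 (adjusted p = 3.10e-06, edgeR). *Pkp3*, a plakophilin, was not called at P5, at 11.6 and 13.0 CPM, and fell from 11.6 to 0.845 CPM at P15 (log2 -3.76, SE 0.253, adjusted p = 1.17e-15, edgeR). *Eppk1*, epiplakin, a linker of keratins, rose from 12.3 to 32.0 CPM at P5 (adjusted p = 7.03e-14, edgeR) and fell from 8.11 to 2.79 CPM at P15 (adjusted p = 1.13e-07, edgeR).

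Of the 12 adherens junction genes, 2 were higher at P5, and 1 was higher and 1 lower at P15. The shares of all genes tested were 13.5% higher and 8.85% lower at P5, and 12.2% and 11.0% at P15. *Cdh1*, E-cadherin, was at 423 and 488 CPM at P5 and fell from 401 to 119 CPM at P15 (log2 -1.75, SE 0.0592, adjusted p = 9.24e-25, edgeR), and its difference between the passages was -1.95 (SE 0.0612, adjusted p = 8.86e-22, edgeR). *Cdh2*, N-cadherin, rose at both passages, from 32.4 to 90.8 CPM at P5 and from 37.3 to 122 CPM at P15 (adjusted p = 5.57e-19 and 1.07e-21, edgeR), and was at 136 CPM in MEFs. *Epcam*, an epithelial adhesion molecule that binds *Cldn7*, was at 243 CPM in naïve and 238 CPM in primed cells of P5 and 203 and 119 CPM at P15 and was not called at either (log2 -0.03 and -0.76).

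Among 21 regulators and surface proteins of epithelia, 6 were higher and 3 lower at P5, whereas at P15 2 of 20 tested were higher and 13 lower. The median log2 fold change was 0.14 at P5 and -1.56 at P15. *Grhl2*, a grainyhead factor known to act on *Cdh1* and claudin genes, was at 24.5 and 19.5 CPM at P5 and fell from 25.2 to 2.23 CPM at P15 (log2 -3.49, SE 0.167, adjusted p = 4.28e-20, edgeR). Its difference between the passages was -3.14 (SE 0.185, adjusted p = 8.50e-15, edgeR). *Grhl1* fell at both passages, from 10.7 to 2.97 CPM and from 10.3 to 0.620 CPM (adjusted p = 6.73e-11 and 5.05e-15, edgeR). *Esrp1*, a splicing factor of epithelial cells, was at 62.2 and 78.8 CPM at P5 and 42.2 and 30.5 CPM at P15 and was not called at either. *Gata3*, a factor of trophectoderm and of several epithelia, rose from 1.41 to 7.15 CPM at P5 (adjusted p = 1.54e-10, edgeR) and was at 2.65 and 1.97 CPM at P15.

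**Figure D4:**
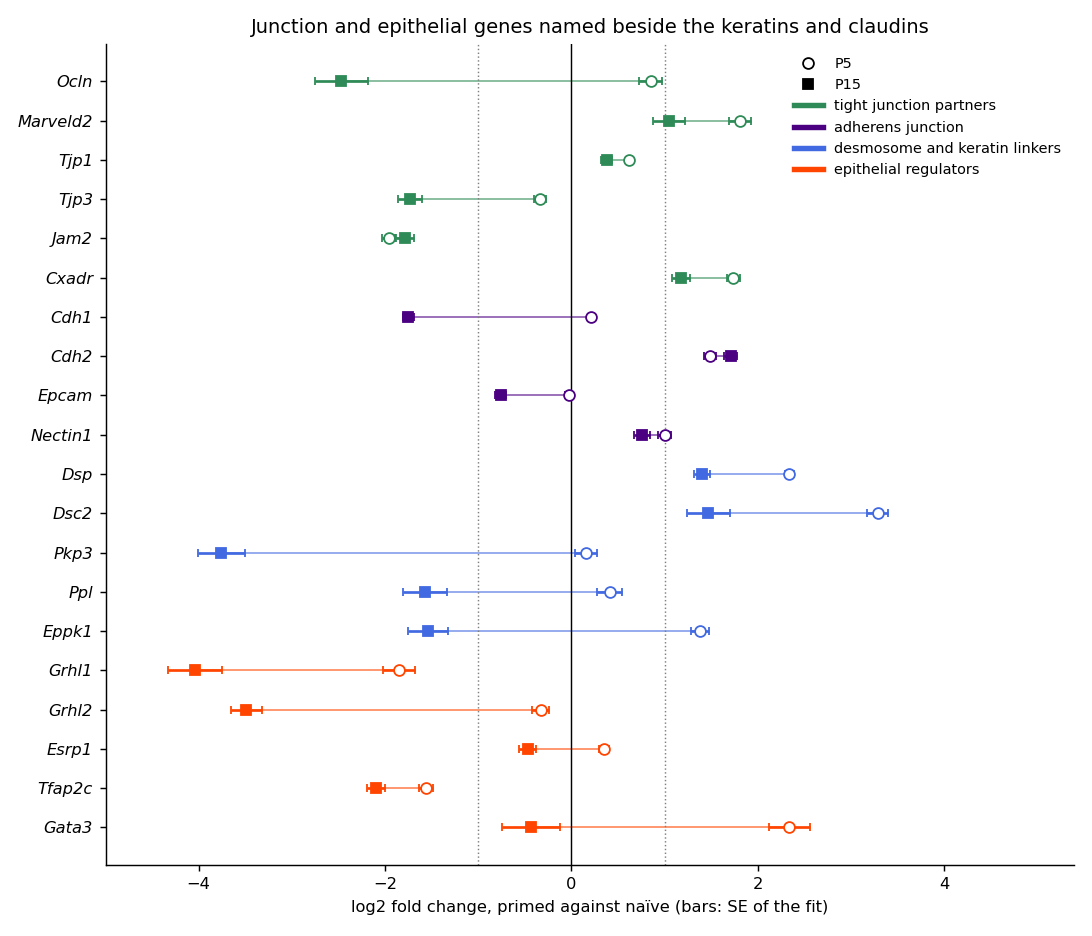
log2 fold changes of primed against naïve cells at P5 (open circles) and P15 (filled squares) with the SE of the fit for 20 named genes of the tight junction, adherens junction, desmosome and epithelial regulator lists, with dotted lines at 2-fold. *Grhl2* moves from -0.33 to -3.49 and *Pkp3* from 0.16 to -3.76, while *Jam2* (-1.96 and -1.79) and *Cdh2* (1.49 and 1.71) keep their places.

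The factors known to repress epithelial genes and the other intermediate filaments were set beside these. Of the 9 genes of the mesenchymal list, 1 was higher at P5, *Cdh2*, and 2 at P15, *Cdh2* and *Twist2*, and the others were not called. The share of all genes called higher was 13.5% at P5 and 12.2% at P15. The Snail and Zeb factors were higher in primed cells but short of 2-fold (adjusted p of 0.00601 or less for each, edgeR). At P5 and P15 the log2 value was 0.69 and 0.96 for *Snai1* and 0.74 and 0.40 for *Snai2*. It was 0.26 and 0.63 for *Zeb1* and 0.96 and 0.76 for *Zeb2*. MEFs held 38.5 to 95.4 CPM of these factors, more than any other group. *Twist2* was at 6.31 and 7.38 CPM at P5 and rose from 4.76 to 11.9 CPM at P15 (log2 1.33, SE 0.173, adjusted p = 2.37e-08, edgeR), with 26.7 CPM in MEFs. *Vim*, vimentin, the filament of fibroblasts and of many embryonic cells, was at 1715 and 1172 CPM at P5 and 1983 and 2095 CPM at P15 and was not called at either passage. The neurofilament *Nefh* fell from 26.9 to 0.922 CPM at P5 and from 35.9 to 0.620 CPM at P15 (adjusted p = 3.19e-20 and 5.36e-25, edgeR), and *Ina*, internexin, fell at both (log2 -3.07 and -2.53, adjusted p = 4.71e-24 and 1.61e-24, edgeR). *Nefm* rose at both, from 1.87 to 4.96 CPM and from 2.10 to 8.76 CPM (adjusted p = 4.02e-06 and 5.10e-10, edgeR). *Des*, desmin, of muscle, was at 39.0 and 30.3 CPM at P5 and fell from 57.1 to 10.9 CPM at P15 (adjusted p = 8.50e-22, edgeR).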

How the data were processed

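Poly(A) RNA of 8 naïve and primed libraries and 1 MEF library was measured. The deposited values are raw counts per Ensembl gene, which the authors made with Cutadapt, HISAT2 on mm10 and featureCounts. The annotation release and the treatment of strand and of reads with several alignments were not given in the sources used here, so overlapping and near-identical genes may share counts. Of 54232 gene IDs, 54165 had a name in GENCODE M21, the other 67 held 0.00419 to 0.00527% of a library's counts, and 92 spike-in entries held 0. Library groups came from the sample titles.

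CPM used edgeR's TMM over the 9 libraries. Genes with at least 10 counts in at least 2 libraries were tested by edgeR 4.0.16 (quasi-likelihood, R 4.3.3, limma 3.58.1) in fits of only the libraries compared, with Benjamini-Hochberg adjustment over all genes tested, and called at an adjusted p under 0.01 and at least 2-fold, the thresholds of the study. The SE is the log2 fold change divided by the root of the F statistic. MEFs entered no fit. The code was tested on simulated data.

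The members and the gene lists were chosen with earlier results of these data known. Genes named are the members, other keratins and claudins with a group mean of at least 5 CPM, the 3 genes per list with the largest called changes at each passage, 13 fixed genes such as Cdh1, the 3 genes most like a member, and neighbours within 100 kb. A gene that this rule would name is not reported here. Elf5, Cdx2, Afp and Ttr were named as defining markers. Alternatives were DESeq2 1.42.0 (size factors and Wald test), scaling by library size alone, a replicate block, leaving out the filter on low counts, MEF counts subtracted by the median ratio of fibroblast markers, a fit of all 8 libraries, each replicate left out and, chosen after seeing the data, a crossed block and the longest transcript's length.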

Additional observations from a re-analysis of the deposited data

Results flagged for a closer look

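Some genes named beside the members passed the thresholds for a state difference that itself differed between P15 and P5. This was the interaction term of a quasi-likelihood fit in edgeR. Of all 16926 genes in that fit, 4.80% passed as lower and 2.36% as higher. Many of the named genes were picked for a large called change at P5 or P15, the same 2 values that this term compares. Passing it is partly fixed by that choice, so nothing is read here or in the next paragraph from how many passed. The value is the log2 fold change of primed against naïve cells at P15 minus that at P5, and a negative one means that primed cells stood lower against naïve ones at P15. Of the genes of junctions and epithelial regulation, it was -1.95 for *Cdh1* (adjusted p = 8.86e-22, edgeR), -3.30 for *Ocln*, -3.14 for *Grhl2*, -2.18 for *Grhl1*, -1.38 for *Tjp3*, -1.80 for *Dsc2*, -3.90 for *Pkp3*, -1.97 for *Ppl*, -2.90 for *Eppk1* and -2.75 for *Gata3*, with adjusted p of 1.62e-05 or less for each (edgeR). Of the other keratins and claudins, it was -2.03 for *Krt42* and -2.69 for *Krt17*, both lower in primed cells at each passage, -3.66 for *Krt20*, -3.32 for *Krt80* and -2.32 for *Cldn9*, with adjusted p from 5.97e-07 for *Krt17* to 0.00399 for *Cldn9* (edgeR).

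Genes of pluripotency and of other cell types passed the same test, with adjusted p of 6.03e-04 or less for each (edgeR). The naïve markers *Zfp42*, *Esrrb* and *Nr0b1* were at -6.35, -3.69 and -5.09, and *Nanog* and *Pou5f1* at 1.40 and 1.39. The intermediate filament gene *Des* was at -2.01, and the mesenchymal and fibroblast genes gave values of both signs, with *Acta2* at -1.68, *Twist2* at 1.12, *Dcn* at 1.69 and *Lum* at 2.12. *Hand1* was at -3.51, *Eomes* at 1.03 and *Foxa2* at 2.40.

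*Cldn3* and *Cldn7* were higher in both primed libraries of P5 and lower in both primed libraries of P15 than in any naïve library of the same passage. Their difference between the passages was -2.34 for *Cldn3* and -2.34 for *Cldn7*. Since both genes were chosen from these data, this difference was not tested apart from that choice. The share of all genes that cross in this way is not given here.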

How the results depend on the processing

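Every call of a member kept its direction and its side of the thresholds in all alternatives, save that of *Krt8* at P15, which held in 11 of 13 settings. The total counts of called genes stayed within 1.5 times of those reported, save 1. With MEF counts subtracted, 327 genes differed between P15 and P5 in naïve cells, against 178, and the share of higher calls there was 13.5% against 36.5%. The same subtraction took this share in the difference between passages from 32.9% to 43.9%. By direction, 5 further counts moved by over 1.5 times. With MEF counts subtracted, higher calls in the difference between passages went from 399 to 608. Lower calls between the naïve passages went from 113 to 283 with the same subtraction, and higher ones from 65 to 43 without the low-count filter. Lower calls between the primed passages went from 1345 to 887 or 890 without replicate 1 or 2 of primed cells at P5, and those at P15 from 1734 to 1155 without replicate 1 of naïve cells. The cause was not tested. Leaving out 1 library of a group leaves the other to stand for it with the spread of the remaining groups.

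The replicate numbers are not said to mark a shared culture or day. Deviations of same-numbered replicates correlated at -0.123 at P5 and -0.185 at P15, and at 0.149 and 0.198 in the passage comparisons of primed and naïve cells. With the replicate block, 3663 genes were called at P5 (3680 without it), 3367 at P15 (3646), 1923 between the primed passages (1853), 229 between the naïve ones (178) and 1164 in the difference between passages (1212). The crossed pairing gave 3691 at P5 and 3647 at P15. No member's call changed under either block.

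Of the other named genes, calls in 38 combinations of gene and setting were lost and 6 gained, among them those of *Cldn1* and *Nectin1* at P5, *Marveld2* at P15 and *Epcam* between the primed passages. The genes most like a member were the same 3 with a pseudocount of 0.25, save for *Cldn7*, which kept 2.

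Depth limits the rare members and relatives. *Cldn3* rested on 37 and 38 counts in primed libraries of P15, and most other keratins and claudins were too low to be tested.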
